A study of Mus musculus with 12 samples.

Results

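The poly(A) sites described here lie across the mouse major histocompatibility complex (MHC) region. They were chosen by position alone, as every cluster of 3' ends on chromosome 17 that starts between 33500000 and 37500000 in the mm9 genome build, on either strand. The rule took 875 of the 145179 clusters in the catalogue of the whole series, and 5873 further clusters lay on the rest of chromosome 17. The study read the ends of polyadenylated RNA by 2P-seq, a method that reads the RNA next to its poly(A) tail, to ask how the nuclear exosome and U1 snRNP shape premature polyadenylation. All 12 libraries came from embryonic stem cells, Exosc3 conditional knockout clones derived from the V6.5 line, and formed 6 groups of 2. Doxycycline at 0.1 μg/ml kept Exosc3, a core exosome subunit, present (dox+), and its removal took Exosc3 away (dox-). The dox+ and dox- groups at 3 days had no nucleofection. The dox+ and dox- groups at 2 days were nucleofected with 15 μM of a U1 antisense morpholino (U1 AMO) or a scrambled one (Scr AMO), and RNA was taken 8 hours later.

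The MHC is a gene-dense stretch known for the histocompatibility (H2) genes. Class I molecules such as H2-K1 and H2-D1 present peptides from inside the cell to cytotoxic T cells, and class II molecules such as H2-Aa and H2-Ab1 present peptides to helper T cells. Embryonic stem cells are known for low levels of both classes, while Pou5f1, which encodes the pluripotency factor Oct4, lies among the class I genes. In the RefSeq gene table of the GRCm38.p6 assembly, used here for names and order only, 264 genes stand from H2-K1 to H2-M3, of which 161 are protein-coding. There are 44 H2 symbols among them, 34 of them protein-coding, with 23 before Pou5f1 and 21 after it. Its protein-coding neighbours are H2-Q10 on the side of the class II genes and Tcf19 on the other. Without an annotation of the mm9 build, no cluster was assigned to a gene, so the label of the region was taken from the rule and not checked against genes.

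Cleavage and polyadenylation are directed by a hexamer just upstream of the cut, which the cleavage and polyadenylation specificity factor binds. The catalogue lists 1 hexamer per cluster, or none. The hexamers shown are the 6 most frequent in the region and the all-A one, since they are the only sequence the catalogue holds. They are in capitals throughout because the whole hexamer is the signal.
Canonical hexamer, 365 sites: AATAAA
Main variant, 101 sites: ATTAAA
Variant of 26 sites: AGTAAA
Variant of 24 sites: TATAAA
Variant of 18 sites: AAGAAA
Variant of 14 sites: GATAAA
All-A hexamer, 8 sites: AAAAAA

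The catalogue held 7 columns with positions, strands, hexamers and hexamer distances, and 0 columns with a value of a library. Read depth and the level of any site in any group are therefore unknown here, and neither could the groups be compared nor the stem cell label be checked against marker genes. Ranges after a share are 95% Wilson intervals over sites, and ranges after a difference of shares are Newcombe intervals built from them. Both cover counting error only. Neighbouring sites share transcripts and there is 1 MHC region, so no test was made and no p-value is given. Ranks among other windows are descriptions.

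The region was crowded with 3' ends. It held 219 sites per Mb against 66.6 per Mb over the 88.2 Mb that the other sites of chromosome 17 span, a ratio of 3.29 (3.06 to 3.53). When the chromosome was tiled from the borders of the region into windows of 4 Mb, each of the 21 other windows held fewer sites, from 26 to 716 with a median of 212. Against the 5 other windows with most sites, pooled, the ratio of densities was 1.44 (1.34 to 1.56). Both strands were used about equally, with 443 plus-strand sites (50.6%, 47.3 to 53.9%) and 432 minus-strand ones.

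Sites were spread unevenly within the region. Blocks of 0.1 Mb held a median of 20.5 sites, and 0 of the 40 blocks were without one. The 4 blocks with over 50 sites held 269 sites together. The densest was chr17:36000001-36100000 with 74 sites, followed by chr17:34000001-34100000 with 72 and chr17:35100001-35200000 with 64. At the other end, 11 blocks had under 5 sites and held 28 in all. The emptiest were chr17:36600001-36700000, chr17:36700001-36800000 and chr17:37400001-37500000 with 1 site each. The longest stretch without a site on either strand was chr17:36455710-36595862, which is 140 kb long. Stretches of 129 kb and 127 kb followed, at chr17:36634298-36763381 and chr17:33538814-33666092. In blocks of 0.5 Mb, the 14 sites of chr17:36500001-37000000 stand against 74 to 170 in each of the other 7.

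**Figure D1:**
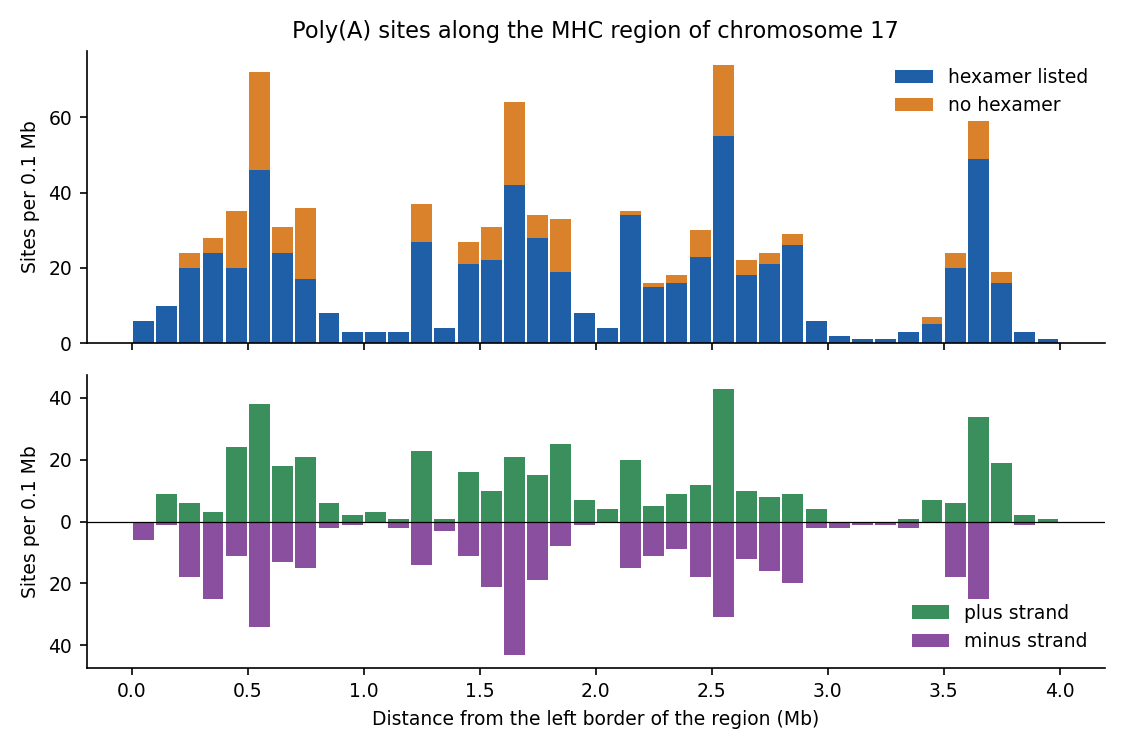
Number of poly(A) sites in each block of 0.1 Mb (vertical axes) by distance from the left border of the region in Mb (horizontal axis), split into sites with and without a listed hexamer (top) and by strand (bottom, minus strand drawn downwards). Of the 40 blocks, 4 hold over 50 sites, and the 5 blocks from 3 to 3.5 Mb hold 14 sites together.

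A hexamer was listed less often than elsewhere on the chromosome. In the region 674 of 875 sites had one (77.0%, 74.1 to 79.7%), against 5104 of 5873 on the rest of chromosome 17 (86.9%, 86.0 to 87.7%), a difference of -9.88 percentage points (-12.9 to -7.07). The share was 89.2% on the other autosomes. Sites without a hexamer numbered 201, or 23.0% (20.3 to 25.9%), against 13.1% on the rest of the chromosome. The share was 75.6% among plus-strand sites and 78.5% among minus-strand sites, against 86.9% for either strand of the rest. All 21 other windows of 4 Mb had a higher share, from 78.2% to 100%, with a median of 91.2%.

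Windows rich in sites tended to have a low hexamer share, and the region was the richest. Across all 22 windows the number of sites and the hexamer share had a Pearson r of -0.879 and a Spearman rho of -0.885. Without the region these were -0.85 and -0.867 over 21 windows. Both measures come from the same sites, so these values are descriptions. The 5 other windows with most sites had hexamer shares of 84.5%, 78.2%, 89.0%, 78.2% and 80.0%. Against those 5 pooled, the difference of the region was -4.97 percentage points (-8.16 to -1.96).

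**Figure D2:**
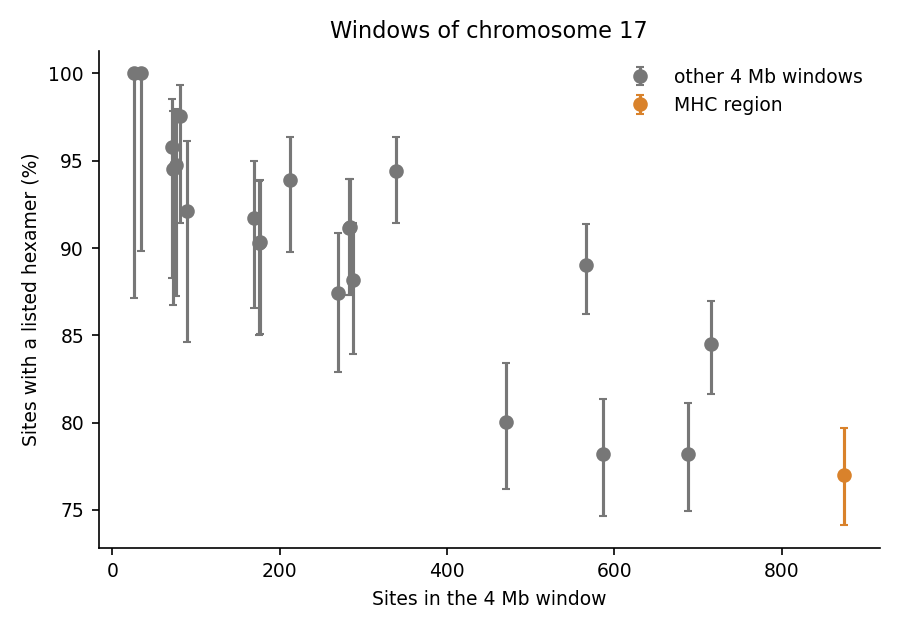
Share of sites with a listed hexamer in percent (vertical axis, 95% Wilson intervals as bars) against the number of sites (horizontal axis) for 22 windows of 4 Mb on chromosome 17. The MHC region, in orange, holds 875 sites with 77.0% and stands at the dense and low end, next to windows of 587 and 688 sites with 78.2%.

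For the canonical signal the interval of the difference took in 0. AATAAA was listed for 365 sites, 41.7% of all sites (38.5 to 45.0%), against 43.9% on the rest of chromosome 17, a difference of -2.18 percentage points (-5.65 to 1.35). Among plus-strand sites the difference was -8.05 points (-12.8 to -3.11), and among minus-strand sites it was 3.74 points (-1.23 to 8.77). Among hexamer sites alone AATAAA made up 54.2% (50.4 to 57.9%) against 50.5% (49.1 to 51.9%), so there its direction was the opposite, 3.64 points (-0.371 to 7.62). ATTAAA was listed for 101 sites, 11.5% of all sites (9.59 to 13.8%) against 15.4% (14.5 to 16.3%), a difference of -3.83 points (-6.00 to -1.37). Among the 21 other windows, 20 had a higher ATTAAA share. Over hexamer sites alone the ATTAAA difference was -2.71 points (-5.42 to 0.361), an interval that takes in 0.

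The less common signals made up the remaining hexamer sites. The region used 30 different hexamers and the rest of the chromosome 34. AGTAAA was listed for 26 sites (3.86% of hexamer sites), TATAAA for 24 (3.56%), AAGAAA for 18 (2.67%), GATAAA for 14 (2.08%) and AAAAAA for 8 (1.19%). The interval of TATAAA, 2.40 to 5.24%, took in the 5.09% of the rest of the chromosome. Of the 30, the region's interval left out the share on the rest for 6, with that share taken as exact. AAGAAT and AAAATA, with 7 sites each (1.04%, 0.504 to 2.13%), stood against 0.176% and 0.255%. AAGTAA, with 6 sites (0.89%, 0.409 to 1.93%), stood against 0.196%, and AAAAGA, with 8 sites (1.19%, 0.603 to 2.32%), against 0.392%. CATTAA had 4 sites (0.593%, 0.231 to 1.52%) against 0.216%. CATAAA was the one with a lower share, with 9 sites (1.34%, 0.704 to 2.52%) against 2.59%. The rest's own interval overlapped that of the region for AAAAGA (0.254 to 0.605%), CATTAA (0.12 to 0.386%) and CATAAA (2.19 to 3.06%). These were singled out after their values had been seen, among 30 compared. The hexamer was listed at 15 to 30 nt for 6 AAAATA sites, 4 AAAAGA sites and 3 AAGAAT sites. For CATTAA this held for 1 site, for AAGTAA for 0 and for CATAAA for 7. For AATAAA it held for 284 of 365 sites. Neighbouring clusters may list the same copy of a hexamer, which was not checked, while each cluster is counted separately. A-rich hexamers, meaning those with 5 or more A other than the canonical one, were listed for 62 sites, or 9.20% of hexamer sites (7.24 to 11.6%), against 9.03%. The difference of 0.167 points (-1.95 to 2.70) became 3.73 with plus-strand sites (0.429 to 7.81) and -3.31 with minus-strand sites (-5.72 to -0.0494).

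Hexamer distances peaked where they did on the rest of the chromosome. The point of a cluster from which they are counted is not given in the sources used here. In a wide cluster the listed distance therefore does not place the hexamer exactly. The most frequent listed distance was 19 nt, with 73 sites, and the median was 22 nt, in both sets. Of hexamer sites, 478 (70.9%, 67.4 to 74.2%) had the hexamer at 15 to 30 nt, against 73.1% (71.9 to 74.3%), a difference of -2.20 points (-5.94 to 1.33). AATAAA had a median distance of 21 nt in both sets, and 77.8% of its sites (73.3 to 81.8%) lay at 15 to 30 nt against 79.7%. Distances of 31 to 60 nt were listed for 83 sites (12.3%, 10.0 to 15.0%) against 10.3%, and distances of 61 to 100 nt for 60 sites (8.90%) against 8.50%. At 11 nt AATAAA was listed for 10 sites, 2.74% of its sites (1.49 to 4.97%), against 4.0%. None of these differences had an interval that left out 0.

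**Figure D3:**
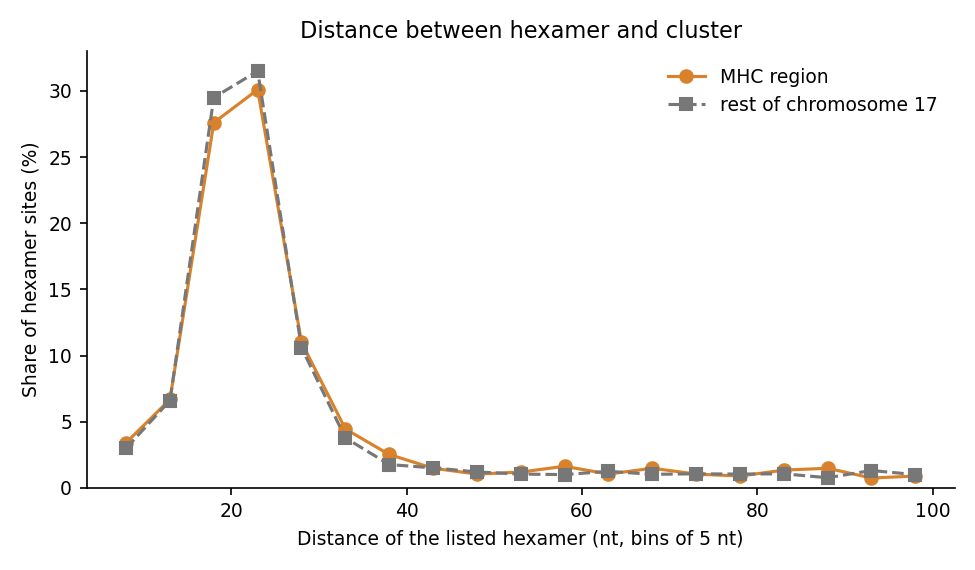
Share of hexamer sites in percent (vertical axis) by the listed hexamer distance in nt (horizontal axis, bins of 5 nt, the last ending at 100 nt), for the MHC region and the rest of chromosome 17. Both lines peak at 21 to 25 nt, with 30.1% in the region and 31.5% on the rest.

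Sites without a hexamer sat mostly inside runs of neighbouring sites, in the region and outside it. Same-strand sites no more than 2 kb apart, edge to edge, were joined, which formed 163 runs in the region and left 237 sites alone. Runs held 638 sites, 72.9% (69.9 to 75.8%) against 66.7% on the rest of the chromosome. Of the 201 sites without a hexamer, 19 were lone (9.45%, 6.14 to 14.3%) and 114 lay in the middle of a run (56.7%, 49.8 to 63.4%). On the rest of chromosome 17 these shares were 17% and 48.2%, and on the other autosomes 17.5% and 46.3%. Lone sites had a hexamer in 92.0% of cases (87.8 to 94.8%), against 93.3% on the rest, a difference of -1.32 points (-5.60 to 1.75). Middle sites had one in 63.5% (58.0 to 68.6%) against 79.4%, a difference of -15.9 points (-21.7 to -10.4). Of the most upstream sites of runs, 71.2% (63.8 to 77.6%) had one against 83.4%, a difference of -12.2 points (-19.9 to -5.39). For the most downstream sites the shares were 87.1% (81.1 to 91.4%) and 91.4%, a difference of -4.29 points (-10.5 to 0.387).

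The canonical signal was more frequent at the downstream end of runs, in the region and outside it. AATAAA was listed for 92 of 163 most downstream sites (56.4%, 48.8 to 63.8%) and 52 of 163 most upstream sites (31.9%, 25.2 to 39.4%), a difference of 24.5 percentage points (13.8 to 34.5). In 59 runs AATAAA stood at the downstream end and not at the upstream one, in 19 runs the reverse, and in 33 runs at both. The most downstream and most upstream shares were 50% (46.9 to 53.0%) and 37.4% on the rest of chromosome 17, and 53.9% and 36.1% on the other autosomes. Joining only sites of the region up to 0.5 kb apart, it was 13.5 points (2.68 to 23.9). Lone sites carried AATAAA in 63.3% of cases (57.0 to 69.2%) and middle sites in 22.8% (18.5 to 27.7%). Against the rest of the chromosome, AATAAA was 5.13 points higher at lone sites (-1.53 to 11.4) and 6.49 higher at the most downstream sites (-1.75 to 14.5), while the difference was -5.49 (-12.8 to 2.54) at the most upstream sites and -5.91 (-10.7 to -0.54) at middle sites.

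The gap to the rest of the chromosome was wider in longer runs. In runs of 2 to 4 sites a hexamer was listed for 83.3% (78.7 to 87.0%) against 87.9%, and in runs of 5 to 9 sites for 71.2% (64.4 to 77.2%) against 80.0%. In runs of 10 or more sites it was listed for 66 of 142 sites, 46.5% (38.5 to 54.7%), against 439 of 574, 76.5% (72.8 to 79.8%). The differences were -4.64, -8.84 and -30.0 percentage points. AATAAA in those longest runs was listed for 13.4% of sites (8.74 to 20.0%) against 25.3% (21.9 to 29.0%). The 10 such runs held 76 of the 201 sites without a hexamer. Without runs of 10 or more sites on either side, the hexamer share of the region differed from that of the rest by -5.09 points (-8.10 to -2.38) in place of -9.88. With only lone sites and the most downstream site of each run, the difference was -2.63 points (-6.08 to 0.119).

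**Figure D4:**
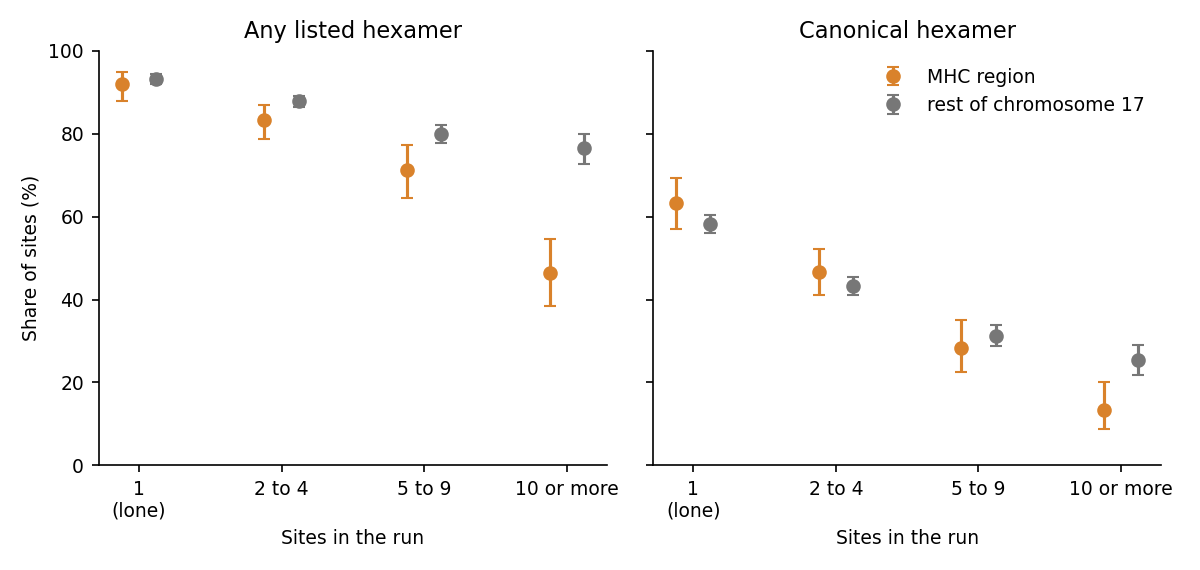
Share of sites in percent (vertical axes, 95% Wilson intervals as bars) with any listed hexamer (left) and with the canonical hexamer (right), by the number of sites in the run (horizontal axes), for the MHC region and the rest of chromosome 17. At 10 or more sites any hexamer is listed for 46.5% in the region and 76.5% on the rest, while lone sites have 92.0% and 93.3%.

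Counted as runs rather than sites, the long runs of the region also had few hexamers. Their hexamer shares ran from 26.7% to 76.5% with a median of 46.1%. In 6 of the 10 (60%, 31.3 to 83.2%) more sites lacked a hexamer than had one. The same held for 6 of 42 runs of 10 or more sites on the rest of the chromosome (14.3%, 6.72 to 27.8%). It held for 61 of 1236 such runs on the other autosomes (4.94%, 3.86 to 6.29%). The median hexamer share of those runs was 85.5% on the rest of chromosome 17 and 88.9% on the other autosomes. The lowest shares outside the region, 16.7% and 10.0%, were below any of the 10. The shares of single runs therefore overlapped between the region and both other sets. In 2 of the 10 runs AATAAA was listed for 0 sites, as in 1 of the 42 on the rest of the chromosome and 66 of the 1236 on the other autosomes. Among runs of 5 to 9 sites the counts without AATAAA were 8 of 30 in the region, 27 of 197 on the rest and 519 of 4461 on the other autosomes. Among runs of 5 to 9 sites, those with more sites lacking a hexamer than having one were 4 of 30 in the region (13.3%, 5.31 to 29.7%). On the rest of the chromosome they were 15 of 197 (7.61%, 4.67 to 12.2%), so the intervals overlapped. The median hexamer shares of runs of 5 to 9 sites were 80% and 83.3%.

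Taking ties in, 6 runs had 15 or more sites, and their signals varied. The run with most, 17 sites, lay on the plus strand at chr17:36054266-36056938 and packed them into 2673 nt with a median gap of 72 nt. It had 4 sites without a hexamer and 6 with an A-rich one, and 1 site with AATAAA. A plus-strand run at chr17:35379700-35388273 had 15 sites over 8574 nt, of which 11 had no hexamer and 0 had AATAAA. It opened with 4 sites without a hexamer, and its last and most downstream site had none either. The plus-strand run at chr17:33955659-33959891 had 15 sites with 10 lacking a hexamer, began with CATAAA at 21 nt and ended with its only AATAAA, at 18 nt. The plus-strand run at chr17:36025226-36030339 had 15 sites, 8 without a hexamer and 5 with AATAAA, the most among these runs. Its median gap was 49.5 nt, and 8 of its gaps were at most 50 nt.

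The other 2 of these large runs faced away from each other. A minus-strand run of 15 sites, chr17:34248952-34256190, and a plus-strand run of 16 sites, chr17:34256951-34263270, were separated by 760 nt. In the direction of transcription, the minus-strand run began with 6 sites without a hexamer and ended with AATAAA at 19 nt. It had 10 sites without a hexamer and 2 with AATAAA. The plus-strand run began with 2 sites without a hexamer, had 9 in all and 0 with AATAAA, and ended with ATTAAA at 22 nt. Among its signals were AGTAAA at 36 and at 48 nt on neighbouring clusters, and AAGAAT at 26 and at 67 nt on another such pair. Whether the clusters of each pair list the same copy of the hexamer was not checked. The block of 0.1 Mb that holds both runs, chr17:34200001-34300000, had the lowest hexamer share of the 40 blocks, with 17 of 36 sites (47.2%, 32.0 to 63.0%). Where transcripts of the 2 runs start was not analysed here.

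**Figure D5:**
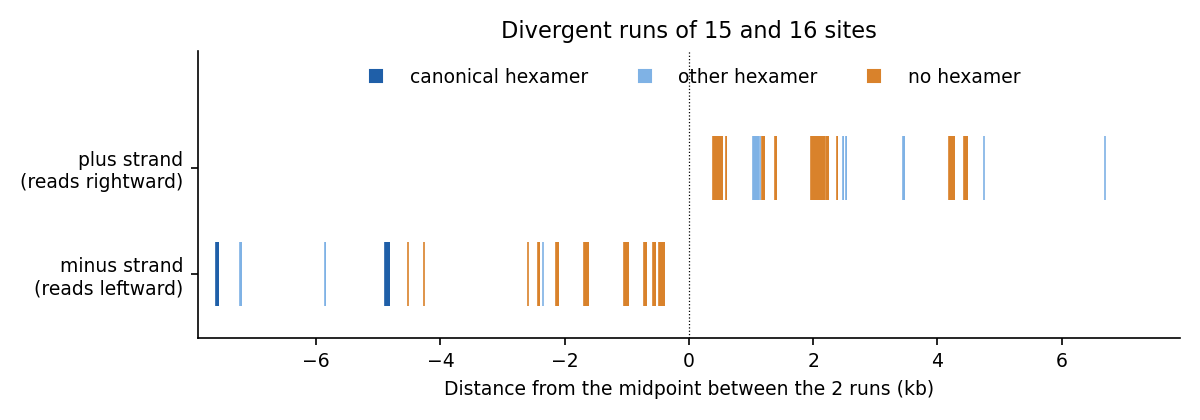
Clusters of the adjoining runs of 15 sites (minus strand) and 16 sites (plus strand), drawn to scale by distance in kb from the midpoint between the runs (horizontal axis), with colour for the listed signal. The 6 minus-strand and 2 plus-strand clusters nearest the midpoint have no hexamer, and the 2 clusters with the canonical hexamer lie towards the left.

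Along runs of 5 or more sites, hexamers were sparser in the upstream part. Of 40 such runs in the region, sites upstream of the middle of the run, in the direction of transcription, had a hexamer in 84 of 153 cases (54.9%, 47.0 to 62.6%). Downstream of the middle it was 103 of 153 (67.3%, 59.5 to 74.2%). AATAAA was listed for 24 and 43 of them, 15.7% (10.8 to 22.3%) and 28.1% (21.6 to 35.7%). The middle site of a run with an odd number of sites was left out. The same order was found in 239 runs on the rest of the chromosome, with 74.4% and 83.6% for any hexamer and 24.2% and 36.1% for AATAAA. Both parts of the runs thus had lower shares in the region than on the rest.

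Hexamer content also varied along the region. By blocks of 0.5 Mb the share was lowest at chr17:34000001-34500000, with 98 of 150 sites (65.3%, 57.4 to 72.5%), and at chr17:35000001-35500000, with 119 of 170 (70.0%, 62.7 to 76.4%). It was highest at chr17:35500001-36000000, with 92 of 103 (89.3%, 81.9 to 93.9%), where AATAAA reached 55.3% of sites. In that last block the 35 sites of chr17:35600001-35700000 included 1 without a hexamer. Sites without a hexamer were absent from 16 of the 40 blocks of 0.1 Mb, which held 66 sites in all. In the 5 blocks that had most of them lay 101 of the 201. Those 5 blocks were also rich in sites of any kind, with 72, 64, 36, 74 and 35 against a median of 20.5 per block. Their high counts of sites without a hexamer therefore partly follow their density. Without the 4 densest blocks the hexamer difference from the rest of the chromosome was -7.37 points (-10.9 to -4.22).

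Clusters were wider than elsewhere. Their width had a median of 13 nt and quartiles of 5 and 27 nt, against a median of 10 nt with quartiles of 3 and 21 nt on the rest of chromosome 17. Mean log2 width was 3.53 ± 1.81 (SD, n = 875 sites) against 3.08 ± 1.79 (SD, n = 5873), a difference of 0.45 (0.33 to 0.58, 95% interval from the standard error over sites). The mean of the other windows of 4 Mb was below 3.53 in 21 of 21, the highest being 3.42. By median width 20 of the 21 were below the region, and the highest was 13 nt, as in the region. Against the 5 dense windows the difference of means was 0.31 (0.17 to 0.44). Sites 1 nt wide made up 8.69% (7.0 to 10.7%) against 12.4%, and clusters over 50 nt 9.26% (7.51 to 11.4%) against 5.52%.

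Wide clusters lacked a hexamer more often. Sites without a hexamer had a median width of 23 nt in the region against 13 nt on the rest of the chromosome, and hexamer sites 11.5 nt against 9 nt. Of clusters over 50 nt wide, 55.6% (44.7 to 65.9%) had a hexamer, against 71.9% on the rest. Of clusters of 2 to 10 nt, 84.6% (80.1 to 88.2%) had one, against 89.7%. The narrowest clusters, of 1 nt, had one in 77.6% (67.1 to 85.5%) against 85.8%, which was lower than at 2 to 10 nt in both sets. The hexamer share was lower in the region in each of 5 width classes, with differences from -16.4 to -5.13 points, although for clusters of 1 nt the interval of the difference took in 0 (-8.12, -18.9 to 0.241). The widest cluster was a plus-strand one at chr17:35379700-35380079, 380 nt wide and without a hexamer, at the upstream end of its run of 15. The next were chr17:36026130-36026378 (249 nt, no hexamer), chr17:36029436-36029681 (246 nt, AATAAA at 60 nt) and chr17:36025467-36025704 (238 nt, AATAAA at 24 nt), all in the plus-strand run of 15 sites that starts at 36025226. The fifth was chr17:34258538-34258753 (216 nt, no hexamer), in the plus-strand run of 16 sites.

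Sites lay close to each other. Another site of the same strand was found within 1 kb for 64.1% of sites (60.9 to 67.2%) against 56.1% on the rest of the chromosome, a difference of 7.99 points (4.52 to 11.4). The median gap to the next site of the strand was 1387 nt against 2188 nt. Of sites without a hexamer 84.6% (78.9 to 88.9%) had such a neighbour, and of hexamer sites 58.0% (54.3 to 61.7%), against 75.2% and 53.3% on the rest. A hexamer site of the same strand was within 1 kb of 148 of the 201 sites without one (73.6%, 67.1 to 79.2%) and within 100 nt of 40 (19.9%, 15.0 to 26.0%). An AATAAA site was within 1 kb of 85 of them (42.3%, 35.7 to 49.2%). On the rest of the chromosome these last shares were 67.0%, 20.3% and 36.0%.

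Strands alternated more often along the region. Of 874 steps from one site to the next along the chromosome, 261 went to the other strand (29.9%, 26.9 to 33.0%), against 25.9% on the rest, a difference of 3.94 points (0.786 to 7.25). Such steps were shorter than on the rest, with a median of 2167.5 nt against 3211 nt from minus to plus and 1743.8 nt against 3879.5 nt from plus to minus. Clusters of opposite strands overlapped at 29 sites, 3.31% (2.32 to 4.72%) against 2.13%, a difference of 1.19 points (0.111 to 2.63) that was 1.02 (-0.129 to 2.68) with borders moved inwards by 0.5 Mb. Of the 21 other windows of 4 Mb, 3 had a higher share of overlapping sites, up to 3.78%. Among the 15 overlapping pairs, 12 had a hexamer on both strands and 6 had AATAAA on both. Such pairs were not counted by hexamer outside the region. A hexamer was listed for 25 of the 29 overlapping sites (86.2%, 69.4 to 94.5%). The share was similar on the rest of chromosome 17, with 109 of 125 (87.2%, 80.2 to 92.0%), and was 91.8% on the other autosomes.

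Pairs of overlapping ends included both lone sites and large runs. The longest overlap, 53 nt, joined the plus-strand AATAAA cluster chr17:36029436-36029681 and the minus-strand AATAAA cluster chr17:36029618-36029670. The next, 48 nt, joined a plus-strand AATAAA cluster, chr17:34045797-34045854, and a minus-strand cluster without a hexamer, chr17:34045802-34045849. Overlaps of 28 and 26 nt fell in the same pair of opposite runs, near 33959102 and 33959866, with no hexamer on either strand in the first and AATAAA on both strands in the second. The fifth, of 19 nt, lay in the run of 17 sites.

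Opposite-strand pairs of ends at larger separations were unevenly divided over runs. The 3 run pairs with most supplied 72 of the divergent and 105 of the convergent pairs at 1 to 3 kb, out of 49 and 46 run pairs. A pair was divergent where its minus-strand midpoint came first along the chromosome, and convergent otherwise. Ranges of the ratios come from Wilson intervals over pairs, not over sites. A site can enter many pairs, so these ranges are too narrow and do not show whether a ratio differs from 1. Separations of 1 to 3 kb held 205 divergent pairs and 230 convergent ones, with a ratio of 0.891 (0.739 to 1.08), against 1.11 (1.01 to 1.21) on the rest of the chromosome. The adjoining runs at 34248952 and 34256951 supplied 43 of the divergent pairs, and the overlapping runs chr17:34042422-34045992 (plus) and chr17:34044122-34046016 (minus) supplied 57 of the convergent ones. Without the former the log2 ratio was -0.51 (-0.80 to -0.22) and without the latter 0.20 (-0.09 to 0.50), against -0.17 (-0.44 to 0.11) with all pairs, so its direction turned when the latter was left out. Without clusters over 50 nt it was -0.37 (-0.70 to -0.04), and without those of 1 nt -0.31 (-0.61 to -0.02). It was 0.01 (-0.17 to 0.19) at 0.5 to 5 kb. At 3 to 5 kb the ratio was 1.24 (1.03 to 1.48), against 0.971 (0.875 to 1.08) on the rest, and 0.928 (0.762 to 1.13) without the former runs. At 5 to 10 kb the ratio was 1.48 (1.30 to 1.69) with all 571 divergent and 385 convergent pairs and 1.19 (1.04 to 1.36) without the former runs, close to the 1.16 (1.08 to 1.24) of the rest. At 0.2 to 1 kb it was 0.646 (0.473 to 0.884), near the 0.633 (0.540 to 0.741) of the rest, and at under 0.2 kb it was 0.829 (0.509 to 1.35) against 1.14 (0.887 to 1.47).

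The identifiers of the catalogue carry numbers that the sites present do not use up. They number clusters with and without a hexamer separately, rise along the chromosome and have gaps, so the numbers between the first and the last site of the region can be set against the sites present. With a hexamer, 674 of 2209 numbers were present (30.5%), against 29.6% on the rest of chromosome 17. Without a hexamer, 201 of 1882 were present (10.7%), against 8.39%. Of all numbers used in the region, those with a hexamer made up 54.0%, against 65.3% on the rest. Both by numbers and by sites present, the hexamer share of the region was below that of the rest. Of the 21 other windows, 2 had a lower share by numbers, the lowest 50.9%, whereas by sites present none did. What the missing numbers stood for is not given in the sources used here.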

How the data were processed

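The authors' deposited table, one for all libraries together, gives poly(A) site clusters with start, end, strand, hexamer and hexamer distance in nt. Per the submitters' processing notes, Trimmomatic, STAR and bedtools were used with mm9. Clustering rules, handling of reads with several matches, and filters against priming in A-rich sequence are not given in the sources used here. Some H2 genes, such as class I ones, are similar in sequence, and read placement among them was not checked. Starts were read as counted from 0 and are printed from 1.

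Libraries were grouped by their treatment labels, but no column held a value of a library, so no library was compared. Shares, differences, runs (gaps up to 2 kb), opposite-strand pairs and overlaps were computed in Python 3.11.15 (pandas 2.3.3, numpy 2.4.6, statsmodels 0.14.6, scipy 1.17.1) and tested on simulated data. Alternatives covered strand, width, runs, borders and comparison set. Named stretches were the 5 widest clusters, the 5 runs with most sites (6 with ties), the 3 densest and emptiest blocks of 0.1 Mb, the 3 longest stretches without sites and the 5 longest overlaps, and others were named after their values were seen. Region, lists and rules were chosen with earlier results of these data known.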

Additional observations from a re-analysis of the deposited data

How the results depend on the processing

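Of 95 alternative values, 68 stayed within the interval of the value reported, 27 moved outside it and 0 of the results whose interval left out the null changed side. Site density stayed above 1. It was 2.93 with lone sites and only the most downstream site per run. Against all other autosomal sites, the rest of chromosome 17 included, it was 3.77, and against the median of the other windows 4.13. It was 3.05 without runs of 10 or more sites and 1.44 against the 5 dense windows. The hexamer difference stayed negative in 11 of 11 alternatives. It was -2.63 points with lone and most downstream sites only and -14.2 against the window median. Without long runs it was -5.09, and against the dense windows -4.97. The AATAAA difference had no stable direction: -8.05 on the plus strand, 3.74 on the minus strand, 5.22 with lone and most downstream sites together, 3.64 among hexamer sites, 5.13 at lone sites, -5.91 at middle sites and 6.49 at the most downstream sites of runs. The A-rich difference was 3.73 and -3.31 on the plus and minus strand and -2.84 with lone and most downstream sites, and the distance difference was 2.69 with these. The width difference was 0.30 without long runs and 0.31 against the dense windows. The run-position difference was 13.5 with gaps up to 0.5 kb. Opposite-strand overlap differed by 2.96 points with the same sites and by 3.24 with clusters within 50 nt counted. The log2 pair ratio was -0.51 and 0.20 without the leading divergent and convergent run pair, -0.37 and -0.31 with clusters up to 50 nt and wider than 1 nt, and 0.01 at 0.5 to 5 kb. The cause of these changes was not tested. Alternatives without long runs, dense blocks or leading run pairs, and against the dense windows, were chosen after seeing the data. No paired analysis was possible because the catalogue has no value per library, so leaving out a replicate could not be done either. Read depth is unknown, and a site's absence from the catalogue does not show that no transcript ends there.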
